A study of Rattus norvegicus with 93 samples.

Results

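Topotecan and oxaliplatin, each given alone, were set directly against each other in rat bone marrow 6 h after dosing. The comparison used 15 of the 93 arrays of the series, chosen by their labels alone: the rats that received a single active agent and were killed at 6 h. Each rat was infused over 30 min with one solution and later, again over 30 min, with another. Topotecan at 4.7 mg/kg in 0.9% NaCl came either first, before 5% dextrose (topotecan/D5W, 4 rats), or second, after dextrose (D5W/topotecan, 4 rats). Oxaliplatin at 15 mg/kg in dextrose came first, before NaCl (oxaliplatin/NaCl, 3 rats), or second, after NaCl (NaCl/oxaliplatin, 4 rats). All were male Sprague-Dawley rats of about 8 weeks with a cannula in the femoral vein, and the RNA came from marrow flushed from the left femur. The 8 vehicle rats at 6 h received both solvents and no drug, 4 in each order, and served as background. Per the study's methods the doses were set somewhat under the maximum tolerated dose, that of topotecan from a model of its hematotoxicity in rats. Each drug was given at 1 dose, so drug and dose cannot be told apart here.

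Topotecan traps topoisomerase I on nicked DNA, and the trapped complexes become double-strand breaks when a replication fork or an RNA polymerase runs into them. Oxaliplatin is a platinum compound that binds purine bases and forms crosslinks, mostly within one strand, which are removed by nucleotide excision repair or, when they join both strands, through the Fanconi pathway. Both lesions activate the checkpoint kinases and p53, which halt the cell cycle and can start apoptosis. Marrow is one of the most rapidly dividing tissues, and loss of blood cell precursors limits the dose of topotecan in patients.

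The values are log2 signals from a rat expression array with 12532 probe sets tested, a probe set being a group of short probes against one transcript. A difference is the mean log2 signal after topotecan minus that after oxaliplatin, adjusted for the place of the drug, and a difference of 1 is a fold of 2. Signals of different probe sets are not on one scale, so levels are compared between rats and not between genes. Markers of marrow were near the top of the scale in all 15 rats: the beta globin gene Hbb lay between 15.31 and 15.35, the neutrophil gene S100a8 between 14.67 and 14.90, and the myeloid lysozyme gene Lyz2 between 14.71 and 14.82. Array medians ran from 9.06 to 9.26. The mean difference of these medians was -0.0476 (two-sided exact permutation test within place, p = 0.0988). Within one drug the lowest correlation of any pair of arrays was 0.978 for topotecan and 0.977 for oxaliplatin, and between the drugs the correlations ran from 0.965 to 0.979. One topotecan rat, D5W/topotecan replicate 88, had a median of 6.81 over the 23 skeletal muscle genes, and the counts led with below were also made without it. Whether a lower signal reflects fewer cells of a type or less of that RNA per cell cannot be told apart in whole marrow.

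Topotecan and oxaliplatin left clearly different RNA profiles at 6 h. At an adjusted p below 0.01 and a fold above 2, 66 probe sets were higher after topotecan (0.527% of those tested) and 73 were lower (0.583%). They named 39 genes on the higher side and 52 on the lower. Without a minimum fold, 976 probe sets were higher and 2125 lower, so 31.5% of those past the threshold were higher. That split depended on the scaling: after a second quantile normalization 42.2% were higher, and after centring each array on its median 46.8%. Counted once per gene, 588 of 7810 genes were higher after topotecan (7.53%) and 1551 were lower (19.9%), and the median difference over all genes was -0.05. The counts of genes in the groups below are to be read against these shares. Complete separation, in which every topotecan array lay above every oxaliplatin array, was met by 2.88% of probe sets, and the reverse by 9.89%.

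The place of the drug made a second, independent set of rats available. With the drug given first, 122 probe sets were called (0.974%), and with the drug given second 160 were called (1.28%). No rat is shared by these comparisons. Of the 49 probe sets called higher with the drug first, 34 were also called higher with the drug second and 49 had the same sign. Of the 73 called lower, 48 were called again and 73 had the same sign. The differences of all 12532 probe sets correlated at a Pearson r of 0.807 and a Spearman rho of 0.764, a description across probe sets, which are not independent replicates. A test of whether the drug difference itself depended on place called 0 probe sets with limma, with a smallest adjusted p of 0.299, while 834 had an unadjusted p below 0.05. The smallest number of rats in a group was 3, and no other tool was run on this contrast. Within each place the drugs also differed in the order of the solvents, and that order was reversed between the places. The test of place therefore cannot tell place from solvent order.

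**Figure D1:**
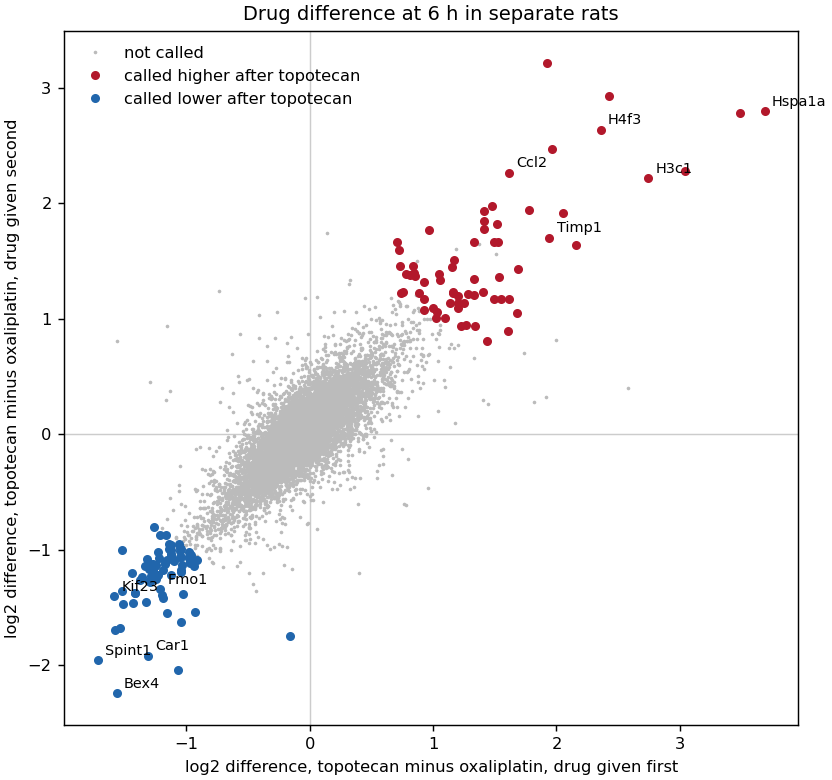
Log2 difference between topotecan and oxaliplatin for each probe set with the drug given first (x axis) and second (y axis), in separate rats. The points lie along the diagonal (Pearson r 0.807), and every probe set called in the first place has the same sign in the second.

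Genes of mitosis formed the most uniform group. Of 34 members measured, 32 were lower after topotecan and 0 were higher, and for 32 every topotecan array lay below every oxaliplatin array. Their median difference was -0.90, against -0.05 over all genes. Set beside vehicle, the medians were -1.21 after topotecan and -0.305 after oxaliplatin; the vehicle rats are shared by both, so these values are given side by side only. Genes past the threshold against vehicle numbered 33 lower of 34 after topotecan (35.6% of all genes) and 14 lower after oxaliplatin (20.7% of all genes).

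Ccna2, the cyclin that drives S phase and entry into mitosis, had signals of 9.57, 9.81 and 9.99 (lowest, median and highest) in the 8 topotecan rats. In the 7 oxaliplatin rats they were 10.91, 11.03 and 11.36, and in the 8 vehicle rats 11.28, 11.48 and 11.56. The drug groups did not overlap, and oxaliplatin lay a little under vehicle. The difference was -1.30 (SE 0.07, adjusted p = 2.93e-08). Cdc20, the activator of the anaphase-promoting complex, ran from 9.19 to 10.00 (median 9.44) after topotecan and from 10.80 to 11.14 (median 10.90) after oxaliplatin, without overlap. It fell by 1.45 on the log2 scale (SE 0.11, adjusted p = 1.60e-07).

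The kinases of the mitotic switch behaved alike. Cdk1, the partner of the mitotic cyclins, had a median of 11.01 after topotecan (10.47 to 11.15) and of 12.11 after oxaliplatin (12.02 to 12.24), a difference of -1.25 (SE 0.10, adjusted p = 4.10e-07). Plk1, which promotes centrosome maturation and spindle assembly, had medians of 9.76 (9.25 to 10.19) and 11.09 (10.93 to 11.15), a difference of -1.31 (SE 0.11, adjusted p = 7.84e-07). In both genes the groups were fully apart. Cyclin B2, Ccnb2, differed by -1.19 (SE 0.10).

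Genes of motor and chromosome proteins also fell. Kif22, a kinesin that pushes chromosomes toward the spindle equator, ran from 9.50 to 10.20 after topotecan and from 11.30 to 11.57 after oxaliplatin (difference -1.49, SE 0.10, adjusted p = 8.34e-08). Kif23, a kinesin of the central spindle, differed by -1.49 (SE 0.11), and Kif20a, which acts in cytokinesis, by -1.29 (SE 0.12). The kinetochore proteins Cenpf and Spc25 differed by -1.44 (SE 0.09) and -1.09 (SE 0.06), and the cohesin-cleaving protease gene Espl1 by -1.18 (SE 0.11). Each of these was separated without overlap. The members that did not pass were Ube2c, the ubiquitin-conjugating enzyme of the anaphase-promoting complex (-0.65, SE 0.20, adjusted p = 0.0173), and the phosphatase gene Cdc25b (0.05, SE 0.08, adjusted p = 0.642).

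Other genes among the 15 with the largest falls have roles in division. Fam83d, a spindle protein, differed by -1.40 (SE 0.10), and Mxd3, a repressor related to Myc partners, by -1.30 (SE 0.09). Sapcd2, a protein of the cell cortex in dividing cells, differed by -1.39 (SE 0.08). In Fam83d topotecan ran from 6.13 to 6.81, and the ranges of oxaliplatin (7.42 to 8.02) and vehicle (7.53 to 7.77) overlapped above it.

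Promoters of these genes are shown for sequence letters already known from late cell cycle genes. The shares describe the list, whether or not a member passed, and were not tested against the drug difference. Genes of the late cell cycle are known to be repressed in resting cells through an element called the cell cycle genes homology region, with the core TTTGAA, and commonly carry CCAAT boxes near it. RefSeq promoters (build GRCr8, 250 bases before to 50 after the start) were found for 30 of the 34 mitosis genes. The core occurred on either strand in 21 of these 30 (70%), against 18.3% of all 33469 promoters. Here and below a list counts 1 promoter per gene. The background counts every promoter entry, whether or not its gene was measured here. A CCAAT box occurred in 23 of 30 (76.7%), against 37.5%, and both occurred in 18 of 30 (60%), against 7.41%. Both motifs were searched on both strands and can share 1 end base, and a match is a description, not a bound site. For 4 of the mitosis genes, the 150 bases before the start are printed 5′ to 3′ on the gene's strand, with the capitals marking TTTGAA, or CCAAT or its reverse complement ATTGG. Cdc20 lies on the minus strand at chr5:137255800-137255949, Cdk1 on the plus strand at chr20:19265143-19265292, Espl1 on the plus strand at chr7:135302566-135302715 and Spc25 on the minus strand at chr3:74396719-74396868.
Cdc20: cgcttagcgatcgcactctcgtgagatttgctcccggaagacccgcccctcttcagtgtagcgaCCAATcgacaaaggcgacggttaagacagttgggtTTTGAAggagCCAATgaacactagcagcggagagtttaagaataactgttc
Cdk1: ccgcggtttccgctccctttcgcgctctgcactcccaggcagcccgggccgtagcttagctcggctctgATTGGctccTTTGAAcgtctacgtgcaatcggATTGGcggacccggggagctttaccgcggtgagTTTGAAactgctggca
Espl1: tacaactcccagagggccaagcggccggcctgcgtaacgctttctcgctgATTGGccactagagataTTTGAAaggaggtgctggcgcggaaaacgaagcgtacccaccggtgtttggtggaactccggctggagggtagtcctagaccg
Spc25: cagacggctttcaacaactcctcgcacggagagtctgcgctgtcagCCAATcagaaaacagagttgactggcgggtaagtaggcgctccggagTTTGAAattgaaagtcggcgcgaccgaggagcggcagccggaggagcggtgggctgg

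In Cdc20 the core began 51 bases before the start and the CCAAT boxes 86 and 41 bases before it. In Espl1 the core lay at 83 and the box at 100, and in Spc25 at 57 and 104. Cdk1 had a core at 72 and another at 16, with boxes at 81 and 49.

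DNA replication genes were lower after topotecan as well, by a smaller amount. Of 39 measured, 35 were lower and 0 higher, 24 without overlap, and their median was -0.426. Against vehicle the medians were -0.988 after topotecan and -0.55 after oxaliplatin, and 39 and 36 members respectively were lower. Tyms, thymidylate synthase, ran from 9.51 to 9.75 (median 9.66) after topotecan and from 10.07 to 10.90 (median 10.39) after oxaliplatin. The difference was -0.77 (SE 0.09, adjusted p = 1.95e-05), and oxaliplatin did not pass against vehicle (0.13, adjusted p = 0.53). Pola1, the catalytic subunit of the polymerase that starts new strands, ran from 7.22 to 7.89 (median 7.72) and from 7.98 to 8.60 (median 8.48), with vehicle at 8.97 to 9.47. Both drugs lay below vehicle and topotecan lay lowest (difference -0.73, SE 0.10, adjusted p = 4.16e-05). Pcna, the sliding clamp, differed by -0.14 (SE 0.04, adjusted p = 0.0109) and did not pass. Promoters of the list held the TTTGAA core in 4 of 36 (11.1%) and a CCAAT box in 22 of 36 (61.1%).

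Among G1 and S phase regulators, 11 of 20 were lower after topotecan and 0 were higher (median -0.29). Ccne1, cyclin E1, which starts S phase, had medians of 8.82 after topotecan (8.32 to 9.08), 9.46 after oxaliplatin (9.15 to 9.86) and 10.75 in vehicle. The 3 groups were stepped, and the drug difference was -0.73 (SE 0.10, adjusted p = 6.75e-05). Cdkn2c, an inhibitor of the cyclin D kinases, had medians of 10.73 (10.51 to 10.96), 11.74 (11.56 to 11.99) and 11.71, so that oxaliplatin and vehicle shared a range and topotecan lay below both. Its difference was -1.03 (SE 0.07, adjusted p = 1.22e-07). E2f7, a repressor of S phase genes, differed by -0.75 (SE 0.08). Cyclin D2, Ccnd2, had the value 0.34 (SE 0.10, adjusted p = 0.0173) and did not pass.

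The gene of topotecan's own target did not pass the test. Top1, topoisomerase I, ran from 11.55 to 11.92 (median 11.81) after topotecan and from 11.51 to 12.07 (median 11.66) after oxaliplatin. The ranges overlapped, and the difference was 0.03 (SE 0.09, adjusted p = 0.793); this p does not show that the levels were equal. Top2a, the topoisomerase of dividing cells, ran from 10.14 to 10.75 and from 11.61 to 11.80, without overlap, and differed by -1.15 (SE 0.09, adjusted p = 2.65e-07). Tdp1, which cleaves trapped topoisomerase I from DNA, ran from 7.88 to 8.28 after topotecan and from 8.57 to 8.99 after oxaliplatin. The groups did not overlap, and Tdp1 fell by 0.61 on the log2 scale (SE 0.07, adjusted p = 1.80e-05). In the list of topoisomerases and adduct removal, 6 of 12 were lower and 0 higher, and 3 were lower after centring each array on its median.

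Crosslink repair genes, of the Fanconi pathway and homologous recombination, were lower in 11 of 16 cases and higher in 0 (median -0.417). Fancd2, the protein that is ubiquitinated when a crosslink stalls a fork, had medians of 8.35 after topotecan (8.15 to 8.53), 9.21 after oxaliplatin (8.97 to 9.45) and 9.78 in vehicle. It differed by -0.86 (SE 0.07, adjusted p = 7.00e-07), with no overlap. Brca1, a homologous recombination protein, ran from 6.76 to 7.37 and from 7.20 to 8.10, with overlap, and differed by -0.53 (SE 0.11, adjusted p = 1.80e-03). Genes of break signalling and the checkpoint kinases were lower in 12 of 18 cases and higher in 0 (median -0.284). Among them Chek2 differed by -0.76 (SE 0.07), Chek1 by -0.46 (SE 0.07) and the histone variant gene H2ax, whose protein is phosphorylated at breaks, by -0.43 (SE 0.07). Nucleotide excision repair had 4 of 10 lower, 0 higher and a median of -0.0291. Ddb2, which recognises damaged bases, differed by -0.62 (SE 0.09), without overlap between the groups.

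Histone genes split. Of 12 measured, 6 were higher and 3 lower after topotecan (median 0.20). Per the study's methods the cDNA was primed with oligo-d(T). These signals therefore report histone RNA with a poly(A) stretch, and total histone RNA was not measured. H3c1, a histone H3 gene of the kind that is expressed with replication, ran from 10.21 to 11.12 (median 10.66) after topotecan, from 8.04 to 8.41 (median 8.26) after oxaliplatin and from 7.66 to 8.66 (median 8.18) in vehicle. The topotecan rats stood apart from both other groups, and oxaliplatin rats shared the range of vehicle. The difference was 2.46 (SE 0.12, adjusted p = 2.93e-08), a fold of 5.50. H4f3, a histone H4 gene, ran from 8.43 to 10.15 (median 9.68) and from 6.69 to 7.57 (median 7.07), without overlap, with vehicle at 6.43 to 7.99, and differed by 2.51 (SE 0.23, adjusted p = 1.45e-06). H2ac25 and Hist4h4, histone H2A and H4 genes, were higher by 0.75 (SE 0.10) and 0.73 (SE 0.14). The 3 lower members included H2az1, a variant made outside S phase as well, which differed by -0.33 (SE 0.04), and the linker histone gene H1f10, at -0.60 (SE 0.08).

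The promoter of H4f3, the highest of these genes with an entry, is shown with TATAAA and CCAAT in capitals. It lies on the minus strand of GRCr8 at chr17:41980342-41980491, with the TATA box 48 bases and the CCAAT box 73 bases before the start.
H4f3: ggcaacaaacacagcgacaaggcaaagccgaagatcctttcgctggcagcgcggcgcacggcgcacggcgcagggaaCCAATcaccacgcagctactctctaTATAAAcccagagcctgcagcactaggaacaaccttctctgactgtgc

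Among the 10 histone genes with a promoter entry, 9 held a CCAAT box and 6 a TATAAA, which 14.2% of all promoters held. The TTTGAA core occurred in 5 of the 10 (50%), against 18.3% of all promoters. All 5 also held a CCAAT box (50%, against 7.41%), so the core was not confined to the lists that fell.

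Many p53 targets were raised by both drugs, and some stood higher after oxaliplatin. In the list of arrest and feedback genes, 8 of 14 were higher than vehicle after topotecan (22.8% of all genes) and 9 of 14 after oxaliplatin (14.2% of all genes). Directly compared, 5 of 14 were lower after topotecan and 0 were higher (median -0.204). Gdf15, a secreted stress factor, ran from 10.06 to 10.97 (median 10.52) after topotecan, from 10.86 to 11.31 (median 11.15) after oxaliplatin and from 6.55 to 8.33 (median 6.89) in vehicle. Both drugs lay far above vehicle, and their own ranges overlapped. The difference between them was -0.54 (SE 0.11, adjusted p = 1.18e-03). Mdm2, the ubiquitin ligase that degrades p53, ran from 11.04 to 11.38 and from 11.41 to 11.88, just without overlap (difference -0.42, SE 0.07, adjusted p = 2.12e-04), and cyclin G1, Ccng1, differed by -0.43 (SE 0.07). Ddit4, an inhibitor of mTOR signalling, was -0.60 (SE 0.13). Cdkn1a, the p21 inhibitor of cyclin kinases, ran from 9.24 to 9.88 after topotecan, from 9.36 to 9.92 after oxaliplatin and from 7.07 to 8.59 in vehicle, and its difference of -0.17 (SE 0.09, adjusted p = 0.162) did not pass.

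Of the p53 apoptosis effectors, 6 of 14 were lower after topotecan and 0 higher (median -0.125). Aen, a nuclease of apoptotic cells, ran from 9.38 to 9.81 (median 9.59) after topotecan and from 10.00 to 10.43 (median 10.27) after oxaliplatin, with a vehicle median of 8.40. The drug groups did not overlap, and the difference between them was -0.65 (SE 0.07, adjusted p = 3.85e-06). Vehicle ran from 8.18 to 9.68, and its highest rat, given dextrose before NaCl, lay within the topotecan range. Bbc3, which encodes the BH3-only protein Puma, differed by -0.35 (SE 0.05), Pidd1, a caspase-activating adaptor, by -0.56 (SE 0.08) and Siva1, an apoptosis regulator, by -0.52 (SE 0.06). Siva1 was below vehicle after either drug (-1.23 and -0.72). The death receptor gene Fas had the value -0.19 (SE 0.08, adjusted p = 0.0739).

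Many cytokine and chemokine genes were higher after topotecan. Of 32 measured, 14 were higher and 0 lower, with a median of 0.448, and the medians against vehicle were 0.813 after topotecan and 0.384 after oxaliplatin. Ccl2, a chemokine that draws monocytes, ran from 9.80 to 11.20 (median 10.71) after topotecan, from 8.15 to 9.18 (median 8.68) after oxaliplatin and from 5.59 to 6.79 (median 6.50) in vehicle. The 3 groups did not overlap, and the drug difference was 1.97 (SE 0.20, adjusted p = 3.66e-06), a fold of 3.91. Ccl4, a chemokine of macrophages, ran from 9.37 to 11.69 and from 8.65 to 9.26, without overlap (difference 1.61, SE 0.27, adjusted p = 3.36e-04). Ccl7 was higher by 1.13 (SE 0.17) and Ccl3 by 0.91 (SE 0.16).

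The neutrophil chemokine genes Cxcl2 and Cxcl1 were higher by 1.22 (SE 0.19) and 0.96 (SE 0.12). Tnf, tumour necrosis factor, was higher by 0.71 (SE 0.11), and Il6 by 0.42 (SE 0.07), while the interleukin gene Il1b had the value 0.52 (SE 0.19, adjusted p = 0.0450) and did not pass. Tgfb2, a transforming growth factor, had medians of 8.60 (8.23 to 9.27) and 7.46 (7.23 to 7.61) and was higher by 1.21 (SE 0.14, adjusted p = 1.28e-05). Cxcl12, the chemokine of marrow stroma that retains stem cells, had the value 0.08 (SE 0.06, adjusted p = 0.376). Among promoters of the list, 12 of 25 held TATAAA (48%), against 14.2% of all, and 3 of 25 held the TTTGAA core (12%).

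Immediate early genes, transcription factors and regulators that respond within minutes to many stimuli, were higher in 15 of 29 cases and lower in 0 (median 0.263). Atf3, a stress-induced factor, ran from 7.78 to 9.94 (median 8.92) after topotecan and from 7.31 to 8.12 (median 7.58) after oxaliplatin, with a vehicle median of 6.35. The lowest topotecan rat lay within the oxaliplatin range, and the difference was 1.40 (SE 0.17, adjusted p = 2.20e-05). Egr2, a zinc finger factor, ran from 6.58 to 7.77 (median 7.05), from 5.63 to 6.01 (median 5.82) and in vehicle from 5.55 to 5.73, and differed by 1.23 (SE 0.11, adjusted p = 1.15e-06). Only topotecan passed against vehicle for Egr2 (1.40); oxaliplatin had 0.18 (adjusted p = 0.11). Jun was higher by 1.11 (SE 0.11), Fos by 0.81 (SE 0.15), Maff by 0.67 (SE 0.11) and Junb by 0.26 (SE 0.05). Genes of NF-kB feedback and adhesion were higher in 6 of 18 cases and lower in 0 (median 0.169), and the adhesion molecule gene Icam1 was higher by 0.44 (SE 0.09).

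Interferon response genes moved less evenly. Of 41, 5 were higher and 1 lower (median 0.161), and 8 were higher without oxaliplatin/NaCl replicate 46. The 1 lower member lost its call when most single rats were left out. Mx1, an antiviral GTPase, ran from 7.58 to 9.59 (median 8.49) after topotecan and from 6.57 to 8.60 (median 6.94) after oxaliplatin. The groups overlapped, and the difference was 1.35 (SE 0.29, adjusted p = 1.90e-03). Oasl, a member of the oligoadenylate synthetase family, was higher by 1.17 (SE 0.19). Ifit1 (1.36, SE 0.42, adjusted p = 0.0188) and Isg15 (0.65, SE 0.27, adjusted p = 0.0652), both induced by interferon, did not pass, and their groups overlapped.

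Hspa1a, the inducible Hsp70 chaperone gene, had the largest difference of any gene named by the rule. Its signals after topotecan were spread widely, from 8.38 to 13.38 (median 10.46), and after oxaliplatin ran from 7.28 to 7.73 (median 7.39), with vehicle between 6.56 and 7.04. Every topotecan rat lay above every oxaliplatin rat, and the difference was 3.21 (SE 0.61, adjusted p = 8.35e-04), a fold of 9.25. The heat shock and chaperonin list, Hspa1a included, did not move as a body: 5 of 29 were higher, 2 were lower and the median was -0.0138. None of the 29 was lower after either rescaling or without replicate 88. Bag3, a cochaperone, was higher by 0.40 (SE 0.08, adjusted p = 1.10e-03), with the groups just apart.

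In the oxidant and metal response list 5 of 26 were higher and 3 lower (median -0.0118), and 1 was lower after centring each array on its median. Mt2A, a metallothionein that binds zinc and copper, ran from 12.14 to 12.93 (median 12.61) after topotecan, from 11.43 to 12.07 (median 11.61) after oxaliplatin and from 9.97 to 10.57 in vehicle. Both drugs raised it, and topotecan more (difference 0.96, SE 0.12, adjusted p = 1.73e-05). Hmox1, heme oxygenase, ran from 13.18 to 13.60 and from 12.74 to 13.16, just without overlap, and was higher by 0.44 (SE 0.08). Sod2, the mitochondrial superoxide dismutase, was higher by 0.66 (SE 0.12) and Ugdh, UDP-glucose dehydrogenase, by 0.84 (SE 0.06). Gclc, the rate-limiting enzyme of glutathione synthesis, differed by -0.70 (SE 0.16, adjusted p = 2.79e-03). Akr1b8, an aldo-keto reductase, had the value -0.96 (SE 0.28, adjusted p = 0.0146) and stood above vehicle by 2.63 after topotecan and 3.58 after oxaliplatin.

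**Figure D2:**
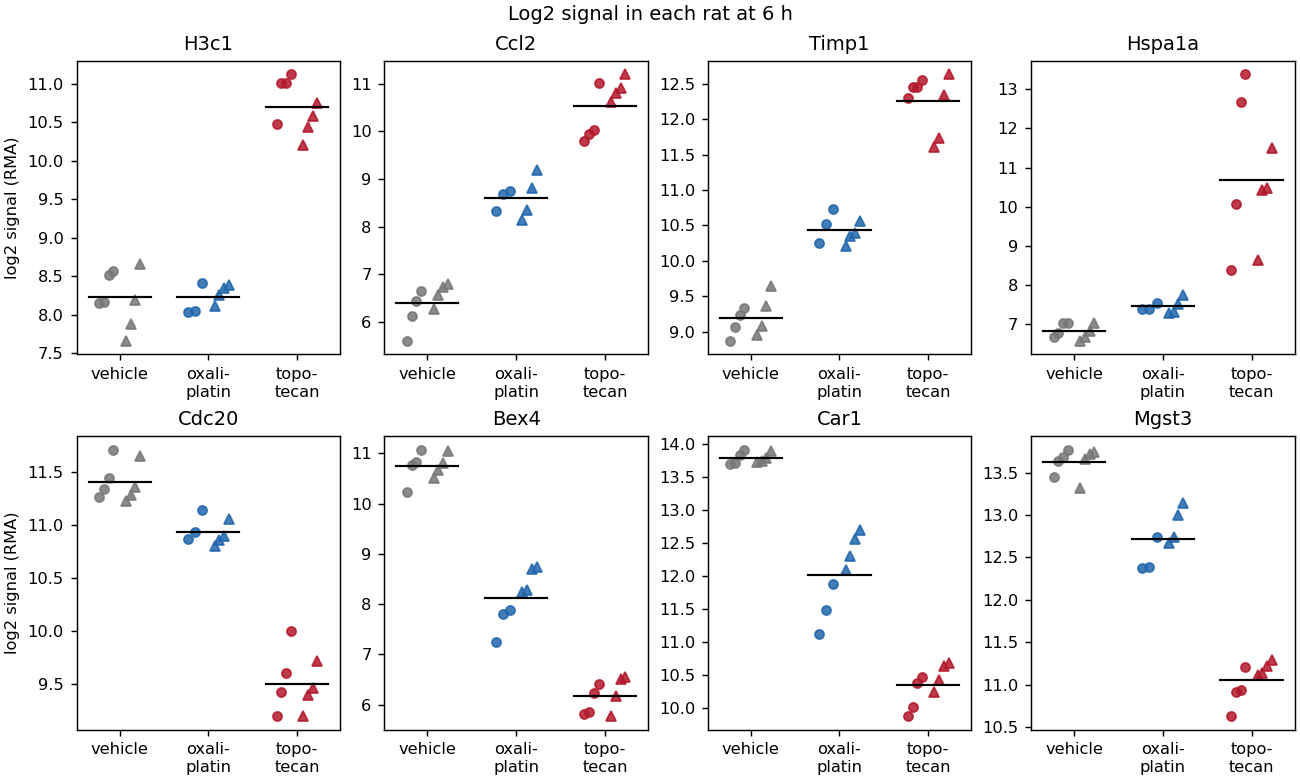
Log2 signal of 8 genes in each rat at 6 h after topotecan, oxaliplatin or vehicle; circles are rats with the drug first, triangles rats with it second (for vehicle, NaCl/D5W and D5W/NaCl), and the line is the group mean. H3c1 in oxaliplatin rats (8.04 to 8.41) sits in the vehicle range, Hspa1a spreads from 8.38 to 13.38 after topotecan, and Bex4, Car1 and Mgst3 step down from vehicle to oxaliplatin to topotecan.

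Car1, a member of the erythroid list, and Bex4, Mgst3 and Spint1, which belong to no list, had the 4 largest falls by the rule. Car1, carbonic anhydrase 1, an enzyme of immature red cells, ran from 9.87 to 10.68 (median 10.40) after topotecan, from 11.12 to 12.70 (median 12.09) after oxaliplatin and from 13.71 to 13.92 (median 13.77) in vehicle. The 3 groups did not overlap, and the drug difference was -1.64 (SE 0.15, adjusted p = 1.33e-06), a fold of 3.11. Bex4, a small protein of the brain-expressed X-linked family, ran from 5.77 to 6.54 (median 6.20), from 7.24 to 8.74 (median 8.23) and in vehicle from 10.22 to 11.08. It had the largest fall by the rule, -1.93 (SE 0.17, adjusted p = 7.75e-07), and its differences from vehicle were -4.58 after topotecan and -2.68 after oxaliplatin. Mgst3, a microsomal glutathione transferase, ran from 10.63 to 11.30 and from 12.38 to 13.14, without overlap (difference -1.64, SE 0.09, adjusted p = 3.40e-08), and Spint1, an inhibitor of serine proteases, differed by -1.85 (SE 0.13, adjusted p = 1.62e-07).

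Heme synthesis and iron genes were lower in 12 of 18 cases and higher in 0 (median -0.409). Tfr2, the second transferrin receptor, ran from 5.43 to 6.16 (median 5.97) after topotecan, from 6.46 to 7.59 (median 6.98) after oxaliplatin and from 8.97 to 9.54 in vehicle. It was stepped as Car1 was, with a difference of -1.12 (SE 0.12, adjusted p = 5.11e-06). Uros and Cpox, enzymes of heme synthesis, differed by -1.11 (SE 0.19) and -0.84 (SE 0.10), and Abcb10, a mitochondrial transporter of red cell precursors, by -0.90 (SE 0.12). Other enzymes of the same pathway did not pass: Alas2, the erythroid rate-limiting enzyme, had 0.07 (SE 0.05, adjusted p = 0.271) and Fech, which inserts the iron, 0.07 (SE 0.06, adjusted p = 0.372).

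In the erythroid list as a whole 9 of 34 were lower and 2 higher (median -0.0739), close to the share of all genes. Epor, the erythropoietin receptor gene, differed by -0.81 (SE 0.10), Dmtn, a membrane skeleton protein gene, by -1.03 (SE 0.18) and Aqp1, a water channel gene, by -0.44 (SE 0.06). Klf1, a master factor of red cell genes, had -0.22 (SE 0.11, adjusted p = 0.141). Bcl11a, the repressor of fetal globin, was higher by 0.53 (SE 0.09). Hbe1, an embryonic globin gene, ran from 8.39 to 10.10 (median 9.48) after topotecan, from 7.23 to 7.92 (median 7.48) after oxaliplatin and from 7.16 to 8.02 in vehicle. Topotecan rats stood above both other groups, and the difference was 1.88 (SE 0.18, adjusted p = 2.09e-06). Whether its probes tell it from other globin genes of like sequence was not tested.

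Some genes of matrix, stroma and vessels were higher. In the list of marrow stroma and repair signals 10 of 29 were higher and 1 lower (median 0.0756), the lower one losing its call when most single rats were left out, and in the endothelium list 8 of 19 were higher and 0 lower (median 0.193). Timp1, an inhibitor of matrix metalloproteinases, ran from 11.61 to 12.63 (median 12.40) after topotecan, from 10.20 to 10.73 (median 10.40) after oxaliplatin and from 8.87 to 9.64 (median 9.16) in vehicle. The groups were stepped without overlap, with a difference of 1.81 (SE 0.14, adjusted p = 2.07e-07). Vcan, the matrix proteoglycan versican, ran from 10.40 to 11.16 (median 10.82) and from 8.72 to 9.43 (median 8.86), with vehicle at 7.78 to 9.55, and differed by 1.75 (SE 0.15, adjusted p = 9.12e-07). Ccn2, connective tissue growth factor, had medians of 12.89, 11.80 and 9.02 after topotecan, oxaliplatin and vehicle and was higher by 1.07 (SE 0.12).

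Fgf7, a growth factor for epithelia made by stroma, was higher by 0.77 (SE 0.10) and Angptl4, an inhibitor of lipoprotein lipase, by 0.65 (SE 0.14). In endothelium, Pecam1 and Lama4 were higher by 0.46 (SE 0.10) and 0.59 (SE 0.10). In the osteoblast and bone matrix list 4 of 35 were higher and 1 lower (median 0.136). Without replicate 88 the count of higher members was 6, and without any one of replicates 28, 45, 46, 75, 93 or 94 it was 2. Bmp4, a bone-forming growth factor, was higher by 0.74 (SE 0.08). Of the smooth muscle type contractile genes, 4 of 10 were higher and 0 lower (median 0.259), and 2 were higher without replicate 88, the rat high in muscle genes, with 1 or 2 left also without replicate 33, 45, 46, 75, 82, 87 or 93. Tagln, an actin-binding protein gene, was higher by 0.90 (SE 0.14). In the skeletal muscle list 0 of 23 were higher or lower (limma) and the median was 0.0911, and in the adipocyte list 0 of 7 were; at unadjusted p below 0.05 3 of the muscle genes and 1 of the adipocyte genes differed.

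Other genes among the 15 with the largest rises have roles outside these lists. Eral1, a mitochondrial ribosome assembly factor, was higher by 2.24 (SE 0.29, adjusted p = 2.97e-05), and oxaliplatin did not pass against vehicle (0.24). Penk, the enkephalin precursor, was higher by 1.34 (SE 0.16), and Tead1, the DNA-binding partner of the growth regulator Yap, by 1.31 (SE 0.11). Dclk1, a kinase that binds microtubules, was higher by 1.44 (SE 0.14), the protease gene Prss23 by 1.31 (SE 0.10) and the sulfatase gene Arsg by 1.26 (SE 0.10). For Dclk1 and Arsg oxaliplatin did not pass against vehicle (0.29 and -0.23), whereas Prss23, Tead1 and Penk rose after both drugs. Among the largest falls, Akr1c14, a hydroxysteroid dehydrogenase, differed by -1.36 (SE 0.20) and Tnfaip8l1, a member of a lipid-carrier family, by -1.31 (SE 0.11), and oxaliplatin did not pass against vehicle for either (0.25 and -0.10).

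B cell precursor genes had 5 of 17 higher and 0 lower (median 0.412), and 9 were higher after either rescaling or without oxaliplatin/NaCl replicate 46. Ebf1, a factor that sets B cell identity, ran from 11.61 to 12.21 (median 11.92) after topotecan, from 10.54 to 11.67 (median 11.09) after oxaliplatin and from 11.27 to 11.85 (median 11.71) in vehicle. It was higher by 0.82 than after oxaliplatin (SE 0.14, adjusted p = 3.06e-04), and for this gene it was oxaliplatin that lay below vehicle (-0.52). The list as a whole had medians against vehicle of 0.283 after topotecan and -0.0798 after oxaliplatin. Against vehicle 7 of 17 were higher and 0 lower after topotecan (22.8% and 35.6% of all genes). After oxaliplatin 4 were higher and 3 lower (14.2% and 20.7% of all genes). Bank1, a B cell signalling scaffold gene, was higher by 0.58 (SE 0.08) and Ms4a1, which encodes CD20, by 0.72 (SE 0.15). Monocyte and macrophage genes had 5 of 19 higher and 0 lower (median 0.284), 9 after either rescaling and 3 without NaCl/oxaliplatin replicate 75 or replicate 82. Mmp12, the macrophage elastase gene, ran from 10.56 to 11.52 (median 10.82), from 9.34 to 10.17 (median 9.91) and in vehicle from 5.61 to 6.13, and was higher by 1.17 (SE 0.14, adjusted p = 1.97e-05). Ctss, cathepsin S, was higher by 0.45 (SE 0.06).

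Granulocyte precursor genes had 2 of 23 higher and 3 lower (median -0.0224). Gfi1, a repressor needed for granulocytes to form, differed by -0.76 (SE 0.07) and Cxcr2, a chemokine receptor of mature neutrophils, was higher by 0.59 (SE 0.13). In the stem and progenitor list 1 of 11 was lower, Prom1, which encodes CD133, at -0.85 (SE 0.08). Of the 18 T and NK cell genes 1 passed, Nkg7, a granule protein gene, at -0.66 (SE 0.07); the granzyme gene Gzmb had 1.52 (SE 0.51, adjusted p = 0.0279). Among the 13 mast cell, basophil and eosinophil genes 1 was higher, Hdc, histidine decarboxylase, by 0.72 (SE 0.16), and 2 were lower. Megakaryocyte and platelet genes had 2 of 16 higher and 0 lower (median 0.248). The counts of 1 or 2 in the granulocyte, mast cell and megakaryocyte lists were 1 to 3 when single rats were left out.

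Respiratory chain, proteasome and cholesterol synthesis genes had members lower after topotecan and none higher. Genes picked by symbol as respiratory chain subunits were lower in 45 of 84 cases and higher in 0 (median -0.172), 25 being lower after centring each array on its median. The symbols also brought in assembly factors and the ATPase inhibitor gene Atp5if1, and the lower ones counted include the assembly factor genes Uqcc5 (-0.49), Ndufaf3 (-0.29), Ndufaf5 (-0.25) and Uqcc3 (-0.24). Proteasome subunits were lower in 13 of 36 cases and higher in 0 (median -0.156), and 6 after centring; Psmd5, an assembly chaperone of the proteasome, differed by -0.67 (SE 0.05). Cholesterol synthesis genes were lower in 8 of 17 cases and higher in 0 (median -0.248), and 5 after either rescaling. Sqle, squalene epoxidase, ran from 8.23 to 8.85 after topotecan and from 9.12 to 9.48 after oxaliplatin, with vehicle at 8.94 to 9.44, and differed by -0.78 (SE 0.08, adjusted p = 3.24e-06). In the integrated stress response list 2 of 22 were lower and 0 higher (median -0.091), and in the Bcl2 family of apoptosis regulators 2 of 7 were lower and 1 higher (median -0.143). Of the 46 genes picked by ribosomal protein symbols (median -0.0592), 3 passed: Rpl39l1, a ribosomal protein copy (0.45), Rps27l, a paralog of a ribosomal protein (-0.38), and Rps6ka4, a kinase that the symbols brought in (-0.36). Zinc finger genes had 8 of 106 higher and 12 lower (median -0.0502), near the median of all genes.

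**Figure D3:**
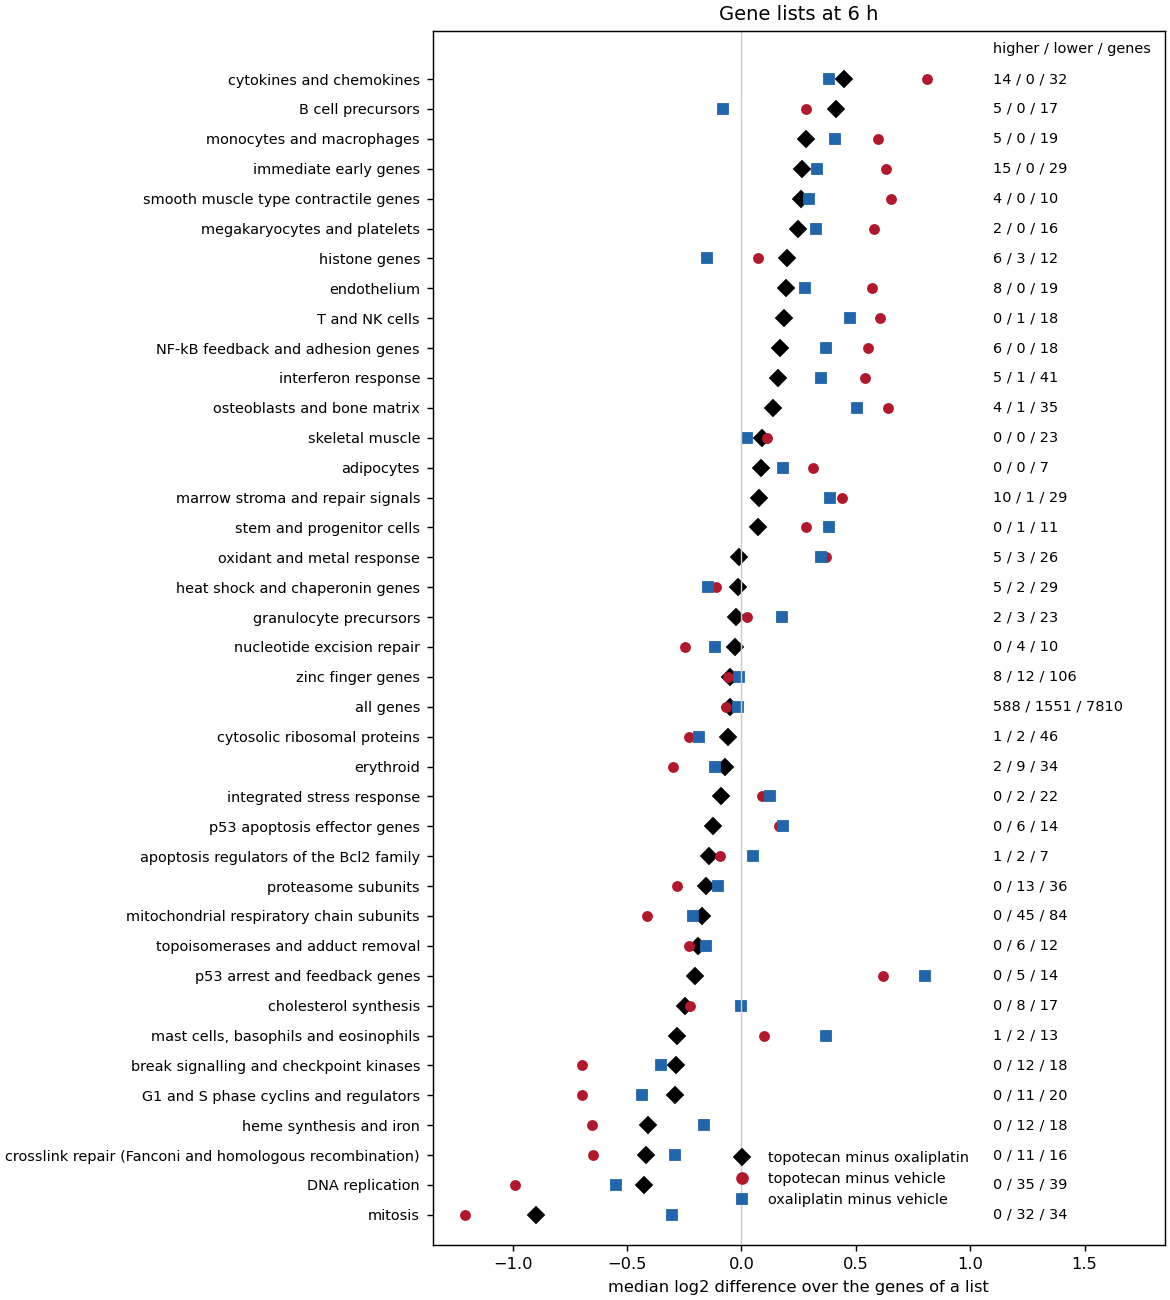
Median log2 difference of each gene list for topotecan against oxaliplatin, topotecan against vehicle and oxaliplatin against vehicle, with the number higher, lower and measured at adjusted p below 0.01 at the side. Mitosis lies lowest (median -0.90), and cytokines and chemokines (0.448) and B cell precursors (0.412) lie highest; the vehicle comparisons share their vehicle rats.

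For some genes the 6 h difference was unlike that at the other times. A fit of all 46 single-agent arrays tested the 6 h difference against that at 1 h and called 409 probe sets (3.26%), 295 in which topotecan stood higher at 6 h relative to oxaliplatin and 114 in which it stood lower. Against 24 h, 278 were called (2.22%), 123 higher and 155 lower. The largest shifts from 1 h were in Hspa1a (2.81) and Ebf1 (2.76) upward and in Pln (-2.21), which encodes phospholamban, and Gdf15 (-2.02) downward. From 24 h they were Hspa1a (3.50) and H3c1 (2.78) upward and Car1 (-4.55) and Bex4 (-4.52) downward. These Ebf1 and Pln values come from 1 probe set each; the Ebf1 probe set described above shifted by 1.05.

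Some p53 targets crossed over. In this fit Cdkn1a stood at a difference of 1.43 (SE 0.18) at 1 h, -0.17 (SE 0.19) at 6 h and -1.59 (SE 0.19) at 24 h. The 6 h value differed from that at 1 h (adjusted p = 5.95e-06) and from that at 24 h (adjusted p = 4.50e-05). Signals of this gene were thus higher after topotecan at 1 h and higher after oxaliplatin at 24 h. Gdf15 stood at 1.47, -0.54 and -1.93, and its 6 h value differed from that at 1 h (adjusted p = 3.99e-04) and missed the threshold against 24 h (adjusted p = 0.0136). Aen and Bbc3 followed the same order, with 1.10 and 1.25 at 1 h, -0.65 and -0.35 at 6 h and -1.39 and -0.83 at 24 h, and their 6 h values differed from both other times. The median of the arrest list was 0.81 at 1 h and -0.669 at 24 h, while that of mitosis was -0.285 and 0.0476.

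Car1 and Bex4 reversed by 24 h. Car1 stood at -0.78 at 1 h, -1.61 at 6 h and 2.94 at 24 h, and Bex4 at -1.13, -1.90 and 2.61. The 6 h values differed from those at 24 h (adjusted p = 2.62e-13 and 6.64e-14) and missed the threshold against 1 h (adjusted p = 0.0318 and 0.0345). The order of the drugs at 24 h was the opposite of that at 6 h in both genes. The lists did not reverse: the erythroid median was -0.512 at 24 h and that of heme synthesis and iron -0.216. The histone genes H3c1 and H4f3 peaked in between: H3c1 stood at 1.02 at 1 h, 2.48 at 6 h and -0.30 at 24 h, and H4f3 at 1.56, 2.50 and -0.12, and for both the 6 h value passed against either other time. Timp1 stood at 0.19, 1.82 and 0.88, and its 6 h value passed against 1 h (adjusted p = 5.72e-04) and not against 24 h (adjusted p = 0.0439).

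**Figure D4:**
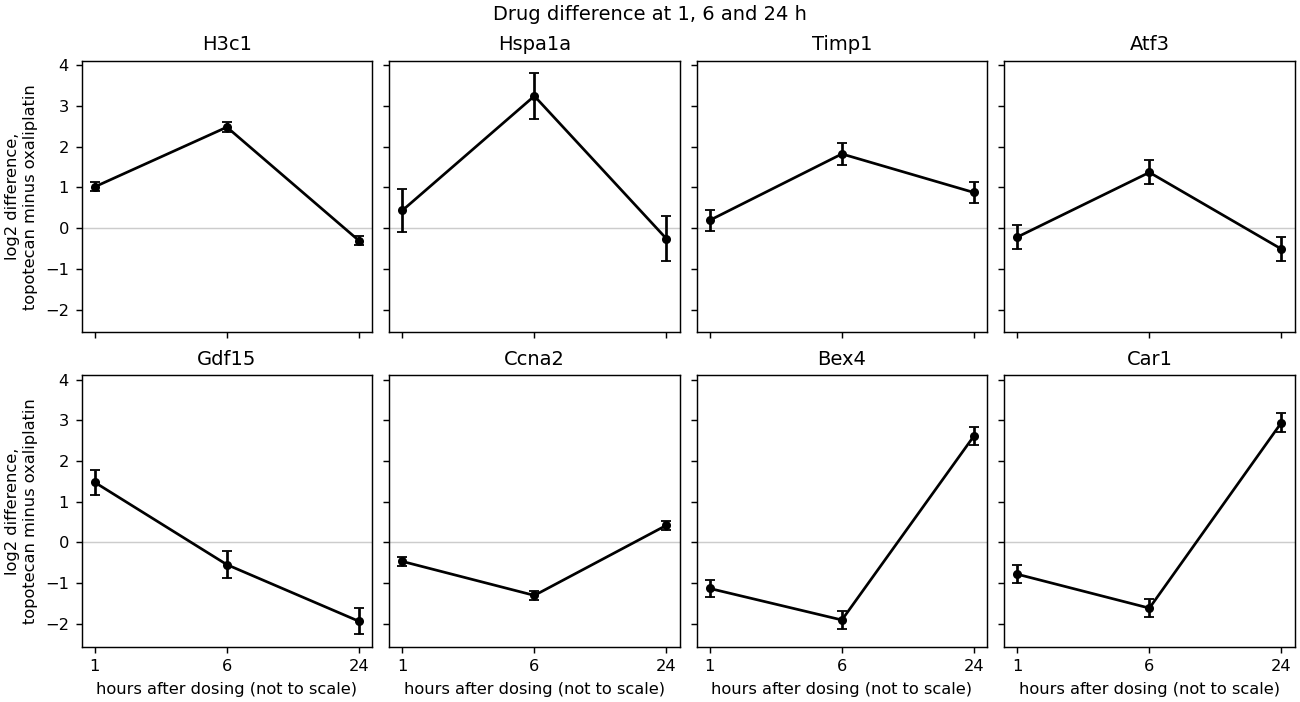
Log2 difference between topotecan and oxaliplatin at 1, 6 and 24 h for 8 genes, from the fit of 46 arrays, with bars of 1 SE. Car1 and Bex4 lie below 0 at 6 h and at 2.94 and 2.61 at 24 h, and Gdf15 falls from 1.47 to -1.93.

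Gene length was associated with the sign of the difference, in the opposite direction from that at 1 h. Lengths in the RefSeq table were known for 7791 genes, which were divided by length into 5 bins of like size. The shortest genes, 0.237 to 7.91 kb, had a median difference of -0.0826 at 6 h, and the longest, 71 to 2320 kb, one of 0.0465. In the longest bin 14.8% were higher after topotecan and 9.11% lower, and in the shortest 6.16% and 24.2%. At 1 h the same medians were 0.106 and -0.349. Over genes, Spearman's rho of length and difference was 0.172 at 6 h and -0.505 at 1 h, a description, since genes are not independent replicates. In single rats, the median of the longest bin minus that of the shortest, relative to the mean of the 15 rats, ran from -0.163 to -0.0145 after oxaliplatin and from -0.0123 to 0.155 after topotecan, without overlap.

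**Figure D5:**
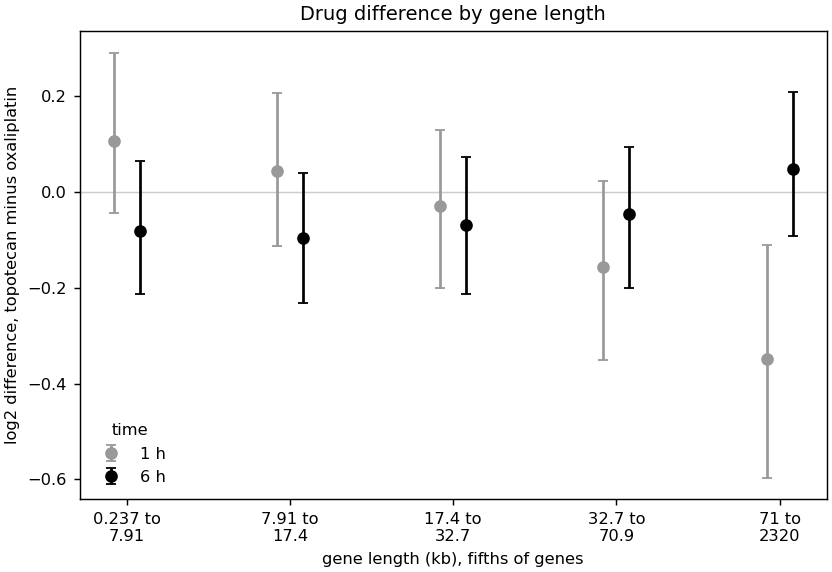
Median log2 difference between topotecan and oxaliplatin in 5 bins of gene length at 1 and 6 h, with bars from the lower to the upper quartile of genes. The median falls with length at 1 h, from 0.106 to -0.349, and is above 0 at 6 h in the longest bin alone (0.0465).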

How the data were processed

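Per the labels, RNA of each rat was hybridized to 1 Affymetrix whole-genome rat array. The authors deposited log2 signals after RMA, which corrects background, equalizes the distributions of all arrays and summarizes probes by median polish, and kept the more informative probe sets. The authors left out 1 oxaliplatin/NaCl array at 6 h as an outlier. The 12560 deposited rows held 28 array controls, which were removed, leaving 12532 probe sets. The platform annotation gave 10002 of them 1 symbol, 292 several and 2238 none, and where a gene had several probe sets the brightest on average over all 93 arrays stood for it. Limma 3.58.1 in R 4.3.3 fitted drug and place on the 15 arrays, with Benjamini-Hochberg adjustment over all probe sets. Vehicle and time contrasts came from fits of group means over 23 and 46 arrays. A probe set was called at an adjusted p below 0.01 and a fold above 2, the study's thresholds.

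The gene lists and the members named were chosen with earlier results of these data known. Besides list members, the 15 genes of largest difference each way among called probe sets whose groups did not overlap were named, and for other contrasts the 5 largest each way. For the main comparison, data of 12532 probe sets were simulated with independent normal noise, so correlation between probe sets was not modelled. Of 100 probe sets changed by 1.5, 99 were called, and of 100 changed by 0.5, 69 had an adjusted p below 0.01. Among unchanged ones 0 were called and 3 had an adjusted p below 0.01. Alternatives were 2 rescalings, other models and sets of arrays, thresholds and leaving out single rats; those for the lists by centring or single rats, the time and vehicle contrasts by single rats and gene length were chosen after seeing the data. The number of arrays limits the precision.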

Additional observations from a re-analysis of the deposited data

Results flagged for a closer look

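Single rats stood apart from the other 3 of their group by Dixon's gap test in 23 of 396 groups of 4 tested. Chance alone gives about 1 in 20. Among rats given topotecan second, replicate 93 was lowest in Kif22 (9.59), Kif23 (9.12), Top2a (10.2), H2az1 (13.5) and Oasl (10.2). Replicate 88 was lowest in Hbe1 (8.39) and highest in the median of the muscle list (6.8), and replicate 94 was highest in Pidd1 (8.02) and Ifit1 (10.6). Among rats given topotecan first, replicate 28 was highest in Prss23 (11.6) and lowest in Pola1 (7.22) and Top2a (10.1), and replicate 34 was highest in Ccl7 (7.51), Akr1b8 (10.8) and Bmp4 (10.2). Replicate 33 was lowest in H1f10 (7.9) and replicate 27 in Atf3 (7.78). Among rats given oxaliplatin second, replicate 82 was highest in Chek2 (9.38) and Gzmb (8.9) and lowest in Tagln (9.76), replicate 75 was lowest in Gdf15 (10.9) and Bmp4 (8.75), and replicate 76 in Ifit1 (7.72). The group given oxaliplatin first had 3 rats and was not tested.

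The drug difference at 6 h differed from that at another time, at an adjusted p below 0.01 and by more than 1, in 84 tests of named genes. All values in this and the next paragraphs are the log2 drug difference at 6 h minus that at the other time. Upward from 1 h were Hspa1a (2.81), Vcan (2.03), Hbe1 (1.82), Mmp12 (1.65), Eral1 (1.63), Timp1 (1.63), Atf3 (1.59), Tead1 (1.55), Hsph1 (1.55), Bcl11a (1.47), H3c1 (1.46), Penk (1.32), Dclk1 (1.28), Ms4a1 (1.14), Tgfb2 (1.06) and Ebf1 (1.05). Downward from 1 h were the p53 targets Gdf15 (-2.02), Aen (-1.75), Bbc3 (-1.60), Cdkn1a (-1.59), Ddit4 (-1.48), Ccng1 (-1.37) and Mdm2 (-1.18). The genes of division that were downward from 1 h were Fam83d (-1.54), Kif23 (-1.47), Mxd3 (-1.44), Sapcd2 (-1.15), Kif20a (-1.13), Kif22 (-1.07), Espl1 (-1.07), Ccnb2 (-1.02) and Cdkn2c (-1.01). So were Spint1 (-1.69), Tnfaip8l1 (-1.42), Mgst3 (-1.32) and H1f10 (-1.19).

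Upward from 24 h were Hspa1a (3.50), H3c1 (2.78), H4f3 (2.62), Eral1 (2.53), Hbe1 (1.99), Atf3 (1.88), Jun (1.64), Arsg (1.59), Ccn2 (1.58), Ccn1 (1.54), Cdkn1a (1.42), Dclk1 (1.32), Tead1 (1.32), Prss23 (1.30), Tgfb2 (1.25), Hmox1 (1.22), Angptl4 (1.13), Egr2 (1.08), H2ac25 (1.08), Cxcr2 (1.07) and Vcan (1.06). Downward from 24 h were Car1 (-4.55), Tfr2 (-2.14) and Uros (-1.53), of the erythroid and heme lists, and Bex4 (-4.52), Mgst3 (-2.27) and Spint1 (-2.01), of no list.

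The genes of division and replication downward from 24 h were Sapcd2 (-1.88), Ccna2 (-1.72), Kif22 (-1.67), Cdc20 (-1.64), Fam83d (-1.50), Kif23 (-1.48), Plk1 (-1.38), Cdk1 (-1.38), Kif20a (-1.34), Cenpf (-1.30), Pola1 (-1.21), Mxd3 (-1.17), Spc25 (-1.16), Ccne1 (-1.15), Top2a (-1.12) and Espl1 (-1.01). So were the crosslink repair gene Fancd2 (-1.01) and the checkpoint kinase gene Chek1 (-1.01). The remaining ones were Tnfaip8l1 (-1.28), Akr1c14 (-1.23) and Sqle (-1.21).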

How the results depend on the processing

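Dropping the minimum fold gave 3101 probe sets in place of 139, 976 higher and 2125 lower. Under the other alternatives chosen with the design the count ran from 103 to 147, with 46 to 77 higher and 49 to 80 lower. Leaving out 1 rat gave 125 to 149 (61 to 77 higher, 59 to 83 lower), with the drug first 89 to 147 (33 to 62 and 51 to 101) and with the drug second 131 to 174 (61 to 83 and 54 to 93). The test of place called 0 or 1, the 1 being lower and appearing without oxaliplatin/NaCl replicate 45. Against 1 h the counts were 396 to 428, against 24 h 245 to 307, for topotecan against vehicle 699 to 751 and for oxaliplatin against vehicle 154 to 178. The array median difference ran from -0.0598 to -0.035, and the median of the longest minus that of the shortest bin of gene length, 0.129, ran from 0.105 to 0.142. Of 114 named probe sets past the threshold, 108 passed without each single rat, and the other 6 (Ccn1, Cdh11, Dnaja4, H1f2, Hsph1 and Pdgfra), all with an adjusted p above 0.005 in the main comparison, lost their call without some. The arrays were also split by the code column in the sample titles, whose meaning the labels do not give. With code columns 5 and 6 alone (7 rats) 53 of the named probe sets were lost. With code columns 7 and 8 alone (8 rats) 28 were lost, and both splits had fewer rats. Over all 93 arrays 11 were lost, and 0 were reversed in any setting. Top1, which did not pass, had -0.0462 with code columns 7 and 8 and 0.167 with code columns 5 and 6. With 1 rat left out Top1 ran from -0.0113 to 0.101, the lowest without NaCl/oxaliplatin replicate 75. No paired analysis was possible because each rat gave 1 array and its number recurs in no other group. A p here sets a drug difference against the spread between these rats, at 1 dose of each drug. With 15 arrays small differences may be missed.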

Other observations

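A probe set without a gene name in the annotation was called in the main comparison. Its difference was -0.16 with the drug first and -1.75 with the drug second. The test of whether its drug difference depended on place did not pass (limma, adjusted p = 0.299). It was singled out after its values were seen. Array medians were lower after topotecan in each of the 4 code columns of the sample titles, by -0.0557, -0.00633, -0.0782 and -0.0132 on the log2 scale.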
